A study of Mus musculus with 6 samples.

Results

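The genes described here are 10 genes of the myeloid lineage, 5 transcription factors (Spi1, Cebpa, Cebpb, Irf8 and Gfi1) and 5 genes of granule proteins (Mpo, Elane, Prtn3, Ctsg and Lyz2) in mouse hematopoietic stem cells. They were taken by symbol and all 10 were found among the 22969 genes of the table. RNA was sequenced from bone marrow cells of adult C57BL/6 mice sorted as lacking lineage markers, carrying Sca-1, c-Kit and CD150 and lacking CD48, with about 500 cells per library. The 3 libraries labelled Rbfox2-deleted came from Vav1-cre; Rbfox2-fl/fl mice and the 3 control libraries from Rbfox2-fl/fl mice. Both groups carry the floxed alleles of Rbfox2, an RNA-binding splicing regulator, and Cre, driven by Vav1 sequences that are active throughout blood cells, is present in the first group alone, so that an effect of Cre cannot be told apart from that of the deletion. The study concerns the role of Rbfox2 in stem cell self-renewal and in protein homeostasis.

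Stem cells carry low levels of lineage genes before they commit, which is called priming. In the myeloid lineage PU.1, the protein of Spi1, and the C/EBP proteins act together on genes of granulocytes and monocytes, IRF8 is needed for monocytes and dendritic cells, and GFI1 represses genes and is needed for neutrophils. Azurophil granules of neutrophils are filled at the promyelocyte stage with myeloperoxidase (Mpo) and with the serine proteases neutrophil elastase (Elane), proteinase 3 (Prtn3) and cathepsin G (Ctsg), while lysozyme (Lyz2) is made by granulocytes, monocytes and macrophages.

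The genes of proteinase 3 and neutrophil elastase are neighbours on mouse chromosome 10, and Prtn3 was far above Elane in every library. Prtn3 spans 79874476 to 79883174 and Elane 79886247 to 79888215 on mm10, both on the plus strand, with 3072 bases between them. Ctsg lies on chromosome 14 from 56099881 to 56102574 on the minus strand. Their longest coding transcripts were 60.0% identical between Prtn3 and Elane, 52.6% between Prtn3 and Ctsg and 54.8% between Elane and Ctsg. The 80 bases from -150 to -71 before each RefSeq start (GRCm38.p6) are shown because these 3 related protease genes had very different levels. They hold no annotated exon, and capitals mark a PU.1 core (GAGGAA) in Prtn3 and Elane and a RUNX core (TGTGGT, read as ACCACA on the other strand) in Ctsg, at chr10:79879517-79879596, chr10:79886162-79886241 and chr14:56102645-56102724. The Prtn3 stretch lies inside the span of Prtn3 given above, which is from GENCODE and begins upstream of the RefSeq start.
Prtn3: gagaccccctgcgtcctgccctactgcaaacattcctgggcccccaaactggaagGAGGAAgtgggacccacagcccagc
Elane: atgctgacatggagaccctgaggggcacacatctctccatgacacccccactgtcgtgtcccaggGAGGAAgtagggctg
Ctsg: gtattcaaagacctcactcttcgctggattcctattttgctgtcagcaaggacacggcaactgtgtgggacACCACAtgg

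RefSeq promoters were found for 9 of the 10 genes, 11 in all, and not for Spi1. Searched on both strands over 250 bases before the start, GAGGAA occurred in 4 of the 11 (Prtn3, Elane, Mpo and Ctsg) and in 23.3% of all 32851 promoters. Its first base stood at -95 in Prtn3 and at -85 in Elane, so that both neighbours had this core at a similar distance. The C/EBP pattern TTGCNNAA occurred in 1 of the 11 (Gfi1) and in 9.56% of all promoters, and TGTGGT in 2 of the 11 (Lyz2 and Ctsg) and in 14.0% of all promoters. No match overlapped another. These matches describe letters in the windows only.

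Libraries labelled Rbfox2-deleted held between 23474895 and 35650284 counts and controls between 47895459 and 55151484 counts. Controls 1 and 3 were nearly identical, differing by 3.44 on a chi-square scaled by its degrees of freedom, where other pairs of libraries gave 156 to 808, and were summed as 1 sample, so that n = 3 for Rbfox2-deleted and n = 2 for control throughout. Rbfox2 itself had 2, 87 and 10 counts in Rbfox2-deleted 1, 2 and 3 and 238, 11 and 250 counts in controls 1, 2 and 3, so the levels of Rbfox2-deleted 2 and control 2 go against their labels and every direction below rests on the labels. Xist, transcribed in female cells, had 2821 and 2467 counts in Rbfox2-deleted 1 and 3 and at most 55 in any other library. Rbfox2-deleted 1 also lacked many transcripts. Of 10061 genes with at least 50 counts in every control library, 1710 (17.0%) had at most 1 count in Rbfox2-deleted 1. This held for 193 (1.92%) in the second and 159 (1.58%) in the third library with this label. It held in all 3 for 46 genes (0.457%), Elane among them. In reverse, of 6660 genes with at least 50 counts in every Rbfox2-deleted library, 1 had at most 1 count in all 3 controls. The sort was visible in the counts. Cd48 had 0 counts in every library except Rbfox2-deleted 3, which had 3, and the gate genes Ly6a, Kit and Slamf1 were detected in all 6. Values are CPM, counts scaled to a library total of 1000000. In bulk RNA, fewer cells of a type and less RNA per cell cannot be told apart.

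Spi1 was the steadiest of the transcription factors. It had 338, 279 and 333 CPM in Rbfox2-deleted 1, 2 and 3, against 301, 365 and 295 CPM in controls 1, 2 and 3. The values of the groups overlapped, and averaged 317 ± 32.3 CPM in Rbfox2-deleted (SD, n = 3) and 331 ± 47.2 CPM in control (SD, n = 2). The log2 fold change, Rbfox2-deleted minus control, came to -0.12 with SE 0.300 and edgeR gave an adjusted p = 0.961. Spi1 is on chromosome 2 from 91082390 to 91115756 on the plus strand.

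Cebpb, the C/EBP factor of stress and inflammatory granulopoiesis, was the other transcription factor with more than 20 CPM in every library. It had 23.4, 69.3 and 66.9 CPM in Rbfox2-deleted 1, 2 and 3, and 44.3, 44.4 and 44.0 CPM in the 3 controls. Rbfox2-deleted 1 was below and the other libraries with this label above all controls, which hardly differed from each other. On the log2 scale the difference was 0.12 with SE 0.574, and the edgeR adjusted p = 0.982. Cebpb (chromosome 2, 167688915 to 167690418) shares 20.7% of its exon bases with Tmem189 on the opposite strand. The protocol keeps no strand, so reads from that stretch cannot be assigned.

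Cebpa, the C/EBP factor required to form granulocyte-monocyte progenitors, was low in every library and at or near 0 in 2 of them. It had 0, 83 and 49 counts in Rbfox2-deleted 1, 2 and 3, or 0, 2.33 and 1.47 CPM, against 42, 1 and 48 counts in controls 1, 2 and 3, or 0.877, 0.0194 and 0.870 CPM. The 0 of Rbfox2-deleted 1 allows up to 0.128 CPM (3 counts). One library of each label was at or near 0, and the groups overlapped. The fitted log2 fold change of 1.35 had SE 2.41 and an edgeR adjusted p = 0.951. Counts of Cebpb were 29.7 and 45.5 times those of Cebpa in Rbfox2-deleted 2 and 3 and 50.5 and 50.6 times in controls 1 and 3.

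Irf8 had 1.79, 2.38 and 6.15 CPM in Rbfox2-deleted 1, 2 and 3, against 6.03, 2.56 and 5.26 CPM in controls 1, 2 and 3. Rbfox2-deleted 3 was at the level of controls 1 and 3, and the other libraries lay nearer to control 2. Its fitted log2 fold change of -0.38 had SE 1.33 and an edgeR adjusted p = 0.976. Gfi1 had 0, 0.0561 and 5.46 CPM in Rbfox2-deleted 1, 2 and 3, from 0, 2 and 182 counts, against 2.004, 11.4 and 1.74 CPM in controls 1, 2 and 3, from 96, 588 and 96 counts. It was uneven within both groups, with Rbfox2-deleted 3 above controls 1 and 3 and control 2 above every other library. The fit for Gfi1 gave -2.15 on the log2 scale with SE 2.43 and an edgeR adjusted p = 0.900, with -0.20 without control 2 and -7.81 without Rbfox2-deleted 3.

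**Figure D1:**
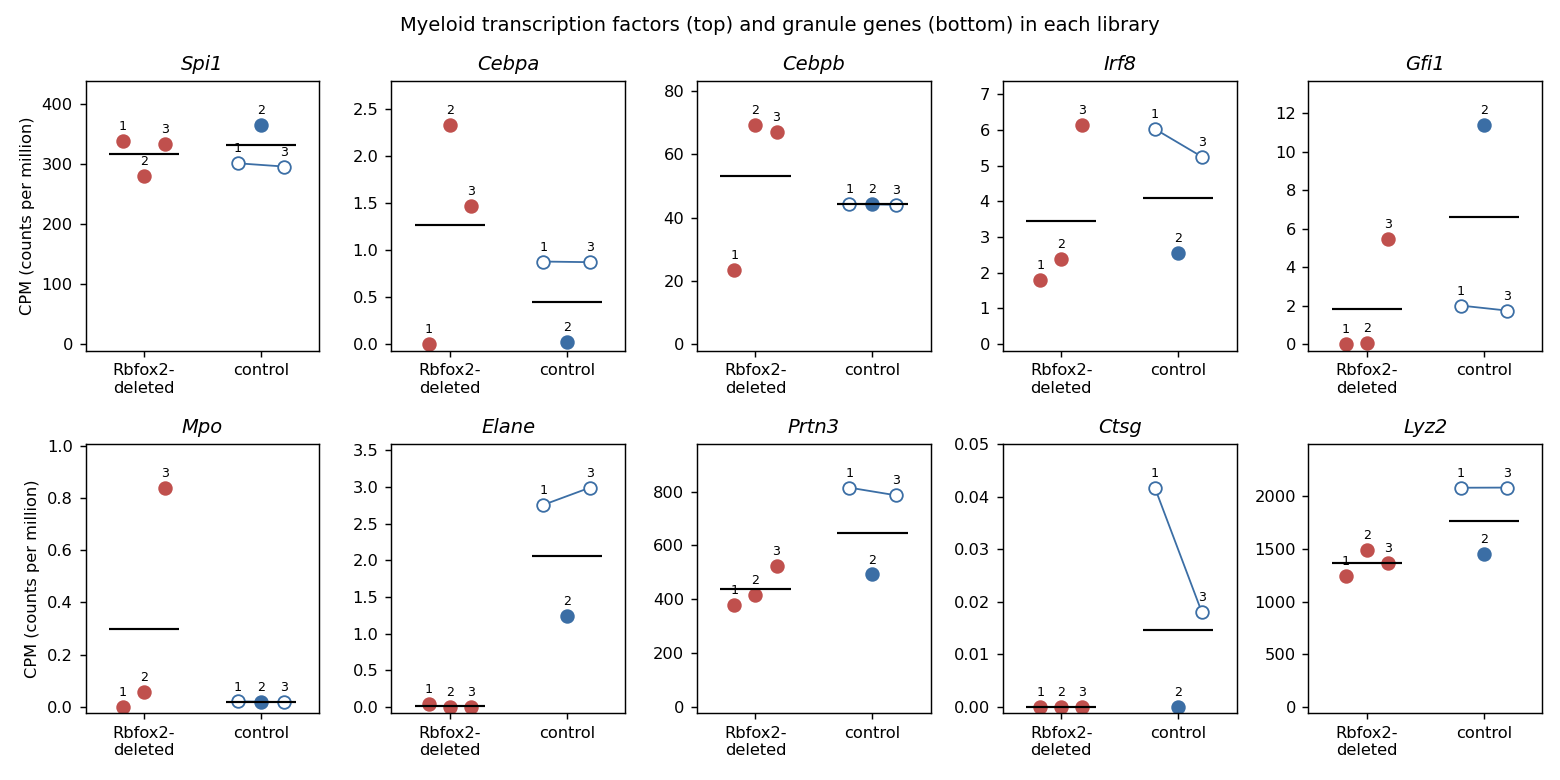
CPM (linear axes from 0, 1 panel per gene) in the 3 libraries labelled Rbfox2-deleted (red) and the 3 controls (blue), with library numbers above the points. Controls 1 and 3 (open, joined) count as 1 sample, and black lines are group means. Elane is at 0.0426 CPM or below in all 3 Rbfox2-deleted libraries and at 1.24 CPM or above in the controls.

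Lyz2 and Prtn3 made up nearly all granule gene counts. Together they took between 99.96% and 99.997% of the counts of the 5 granule genes in Rbfox2-deleted libraries and between 99.89% and 99.94% in controls. All 5 summed to 1624, 1908 and 1893 CPM in Rbfox2-deleted 1, 2 and 3, against 2884 CPM in controls 1 and 3 together and 1944 CPM in control 2, so that the highest Rbfox2-deleted library was just below control 2. Lyz2 had 1246, 1491 and 1369 CPM in Rbfox2-deleted 1, 2 and 3, against 2081, 1451 and 2082 CPM in controls 1, 2 and 3. Per kilobase of transcript it ranked between 52 and 68 of all genes in the Rbfox2-deleted libraries and between 45 and 70 in the controls. Control 2 lay within the range of the Rbfox2-deleted libraries, while controls 1 and 3 lay above it. For Lyz2 the log2 difference of -0.43 had SE 0.241 and an edgeR adjusted p = 0.672. Lyz2 (chromosome 10, 117277331 to 117282321, minus strand) has a near copy, Lyz1, whose longest transcript is 92.0% identical. Lyz1 had between 1.53% and 1.61% of the counts of the pair in Rbfox2-deleted libraries and between 1.10% and 1.24% in controls, and reads that match both copies make these counts uncertain.

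Prtn3 had 378, 417 and 523 CPM in Rbfox2-deleted 1, 2 and 3, against 815, 492 and 786 CPM in controls 1, 2 and 3. Per kilobase it ranked between 160 and 271 of all genes in Rbfox2-deleted libraries and between 116 and 247 in controls. Rbfox2-deleted 3 was above control 2, so the groups overlapped in CPM. With TMM factors, which scale libraries to a common level for most genes, Prtn3 averaged 427 ± 36.1 CPM in Rbfox2-deleted (SD, n = 3) and 660 ± 187 CPM in control (SD, n = 2), and the groups of both Prtn3 and Lyz2 no longer overlapped. Over all 12350 genes tested, the groups were separate on this scale with Rbfox2-deleted lower for 17.2% of genes and with it higher for 14.9%. Prtn3 had a log2 difference of -0.63 with SE 0.264 and an edgeR adjusted p = 0.518. Plppr3, on the opposite strand, shares 9.18% of the exon bases of Prtn3.

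Both are short transcripts, of 1316 bases for Lyz2 and 1025 for Prtn3, and fold changes of all genes moved with length in these libraries. The median log2 fold change was -0.36 over 960 genes with transcripts of 1000 to 1500 bases, -0.61 over 709 shorter ones and 0.43 over 2596 genes of 1500 to 2500 bases. It was 0.31 over 3794 genes of 2500 to 4000 bases and 0.03 over 4269 longer ones. With each library corrected for transcript length, the difference was -0.22 for Prtn3 and -0.21 for Lyz2, with a median of 0.11 over all genes. Relative to that median they were at -0.33 and -0.32, against -0.74 and -0.54 without the correction.

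**Figure D2:**
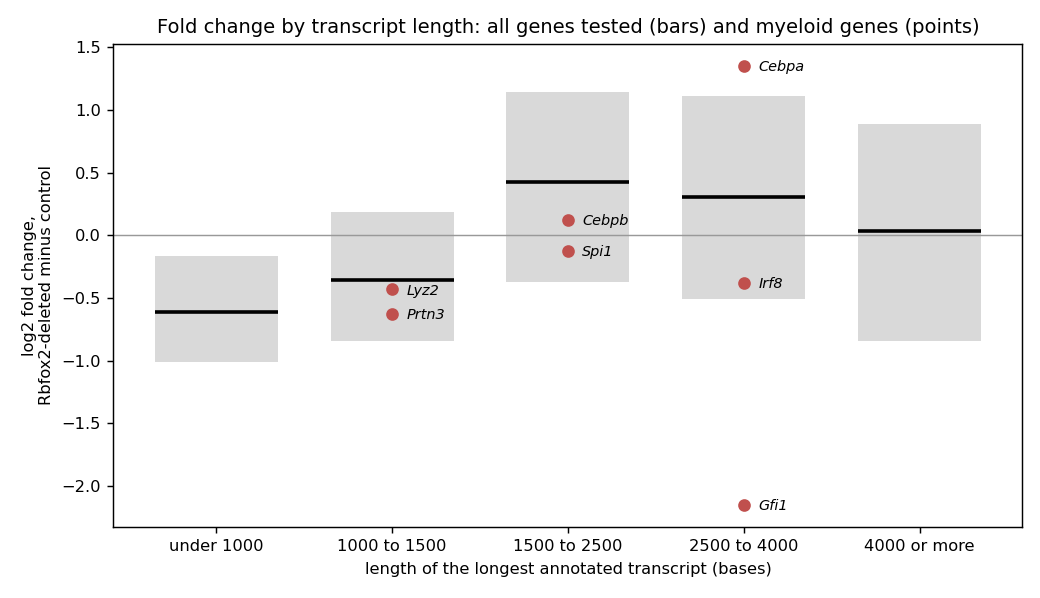
Log2 fold change (Rbfox2-deleted minus control) by length of the longest annotated transcript in bases. Grey bars span the quartiles and black lines are medians of all genes tested in each length class. Red points are the myeloid genes, except Elane at -7.06, which lies below the axis, and Lyz2 and Prtn3 lie within the quartiles of the class of 1000 to 1500 bases.

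Elane was the only one of the 8 genes tested whose groups did not overlap in CPM, and with TMM factors those of Prtn3 and Lyz2 did not overlap either. It had 1, 0 and 0 counts in Rbfox2-deleted 1, 2 and 3, or 0.0426, 0 and 0 CPM, against 132, 64 and 165 counts in controls 1, 2 and 3, or 2.76, 1.24 and 2.99 CPM. Every control lay above every Rbfox2-deleted library, also with TMM factors. The counts of 0 allow up to 0.103 CPM in Rbfox2-deleted 2 and 0.111 CPM in Rbfox2-deleted 3 (95% Poisson interval), which is below all controls and covers counting error only. Summed over libraries, 1 of 92470549 counts in Rbfox2-deleted and 361 of 154689980 counts in control gave a ratio of 0.00463 (95% exact interval 0.000117 to 0.0260, counting error only).

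By edgeR the log2 fold change of Elane was -7.06 (SE 2.18), with an unadjusted p = 0.0164 and an edgeR adjusted p = 0.393 over all genes. Its size depends on how 0 counts are treated and is not a bound. Elane passed the filter on low counts only through the controls, where it was high, so this p is given as a description. Over all genes, 4.56% had an unadjusted p under 0.05 in the lower direction, and the groups were separate in CPM with Rbfox2-deleted lower for 15.4% of genes. DESeq2 on the whole table, which called 3.37% of genes with an adjusted p, gave Elane an adjusted p = 0.000967, and after the same filter as edgeR an adjusted p = 0.193. Rbfox2-deleted libraries were the shallower ones, and Rbfox2-deleted 1 and 3 had the high Xist level. With sex as a covariate the edgeR log2 fold change was -9.71. No control had the high Xist level, so this value rests on Rbfox2-deleted 2 alone against the controls. The Rbfox2 level of that library goes against its label.

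The remaining azurophil genes were close to absent. Mpo had 0, 2 and 28 counts in Rbfox2-deleted 1, 2 and 3, and 1 count in each control. The 28 counts, 0.840 CPM (95% Poisson interval 0.558 to 1.21), made Rbfox2-deleted 3 the only library with more than 2 Mpo counts. Ctsg had 0 counts in all 3 Rbfox2-deleted libraries and 2, 0 and 1 in controls 1, 2 and 3, which is within the floor of 3 counts. Mpo and Ctsg were under the filter on low counts and had no test in the edgeR comparison. Without the filter edgeR gave log2 values of 3.45 for Mpo (adjusted p = 0.796) and -3.01 for Ctsg (adjusted p = 0.799). Mpo (chromosome 11, 87793581 to 87804413) shares 512 of its 3424 exon bases with an antisense gene, Gm11505.

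Within a library the ratio of the neighbours differed greatly. Prtn3 had 296, 397 and 263 times the counts of Elane in controls 1, 2 and 3. In Rbfox2-deleted 1 there were 8871 Prtn3 counts to 1 of Elane, and Rbfox2-deleted 2 and 3 had 14871 and 17444 Prtn3 counts with 0 of Elane. The ratio of Lyz2 to Prtn3 counts lay between 2.62 and 3.57 in Rbfox2-deleted libraries and between 2.55 and 2.95 in controls.

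The order of levels per kilobase was the same in both groups for the 4 highest genes and not below them. In CPM per kilobase, Rbfox2-deleted libraries averaged 1040 for Lyz2, 429 for Prtn3, 156 for Spi1 and 35.4 for Cebpb, and controls averaged 1342, 630, 163 and 29.4. These 4 did not overlap with their neighbours in the order within either group. Irf8, Gfi1 and Cebpa followed at 0.992, 0.643 and 0.482 in Rbfox2-deleted and 1.18, 2.32 and 0.170 in control. Their samples overlapped in Rbfox2-deleted, while in control those of Irf8 and Gfi1 overlapped and both lay above those of Cebpa. Elane ranked 9th of the 10 genes at 0.0144 in Rbfox2-deleted and 6th at 2.09 in control.

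**Figure D3:**
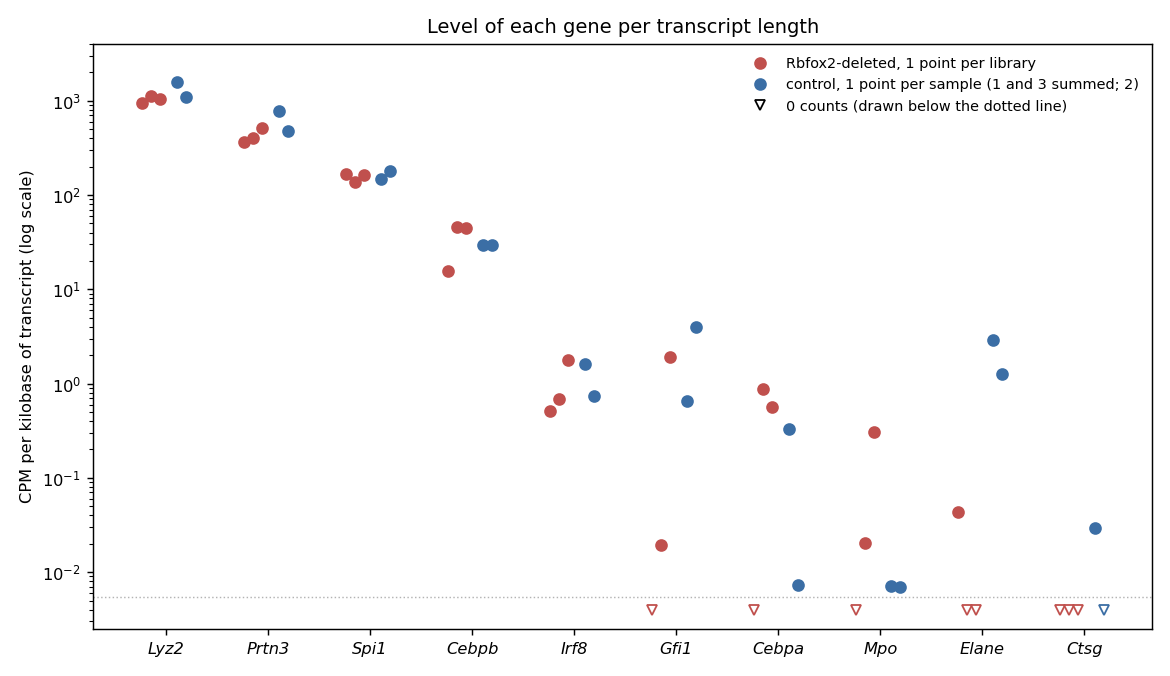
CPM per kilobase of the longest transcript (log axis) for each gene, ordered by the Rbfox2-deleted mean. Red points are the 3 libraries labelled Rbfox2-deleted and blue points the 2 control samples, and open triangles below the dotted line are samples with 0 counts. Lyz2, Prtn3, Spi1 and Cebpb keep 1 order in both groups.

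Of the 10 genes, 8 passed the filter and none passed the adjusted threshold by edgeR, as was the case for 0 of 12350 genes (0.00%). At an unadjusted p under 0.05 there was 1 of the 8, Elane, which entered only through its control level, against 9.89% of all genes in either direction, 5.33% higher and 4.56% lower. The fold change was below 0 for 6 of the 8 and for 46.5% of all genes, with a median of -0.40 against 0.11 over all genes, as a description of the genes that passed. It was below 0 for all 3 granule genes tested, and for 3 of the 5 transcription factors, whose median was -0.12. The 3 granule genes depend on the filter, which Elane passed only through its control level. Without the filter 4 of the 5 granule genes were below 0 and 1, Mpo, was above it at 3.45.

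**Figure D4:**
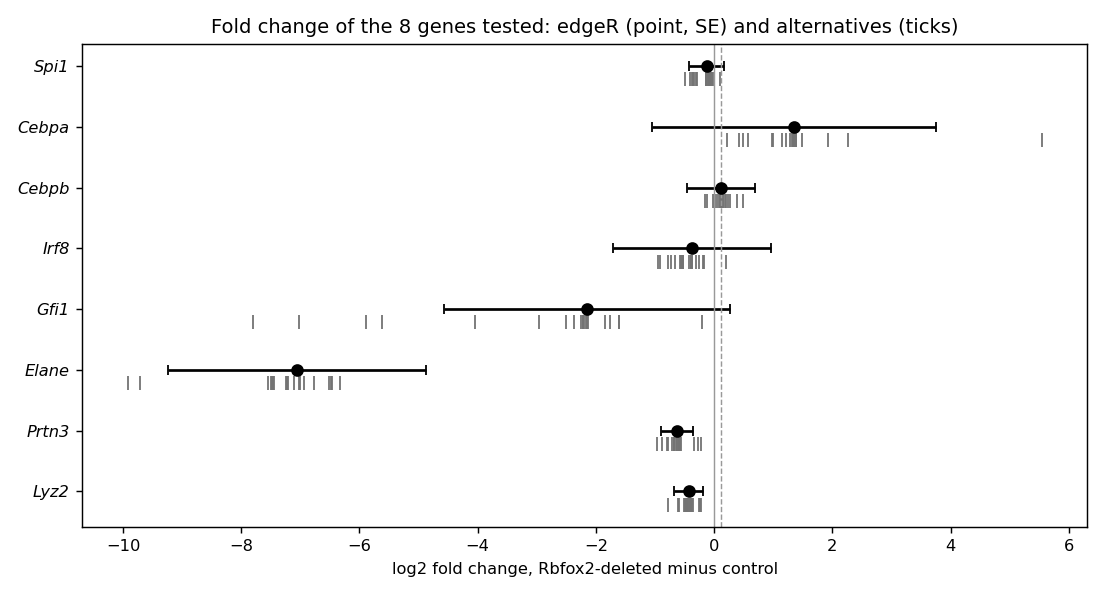
Log2 fold change (Rbfox2-deleted minus control) with SE from the edgeR fit (points) of the 8 genes tested, and the value under each alternative setting (grey ticks). The solid line is 0 and the dashed line the median of all genes, 0.11. Elane, Prtn3 and Lyz2 are below 0 under every alternative in which they were tested, and Spi1, Cebpb and Irf8 have ticks on both sides of 0. Gfi1 is also below 0 (-7.81 to -0.20) and Cebpa above 0 (0.22 to 5.54) under every alternative.

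Other genes of granules and of their processing gave values on both sides. Of 25 listed, 16 were tested, 8 above and 8 below control with a median of 0.15, and 0 passed over all genes by edgeR. Ctsc, cathepsin C, which activates granule serine proteases by removing a dipeptide, had 58.2, 139 and 154 CPM in Rbfox2-deleted 1, 2 and 3, against 27.1 CPM in controls 1 and 3 together and 29.3 CPM in control 2. All 3 Rbfox2-deleted libraries were above the controls, and the log2 difference of 1.91 had SE 0.489 and an edgeR adjusted p = 0.387. DESeq2 called Ctsc on the whole table and after the filter, with a lowest adjusted p = 0.0380, as the one gene of this list. Groups were separate with Rbfox2-deleted higher for 15.8% of all genes. Srgn, serglycin, the proteoglycan that packs proteases into granules, had 688, 675 and 714 CPM in Rbfox2-deleted libraries, against 1376 CPM in controls 1 and 3 together and 1108 CPM in control 2. It was lower in all 3, by -0.90 on the log2 scale with SE 0.239 and an edgeR adjusted p = 0.387. Groups were separate with Rbfox2-deleted lower for 15.4% of all genes. The cystatin Cst3 (679 ± 179 CPM in Rbfox2-deleted, n = 3, and 749 ± 19.3 CPM in control, n = 2, SD) and Cyba, a subunit of the phagocyte oxidase (399 ± 41.3 CPM in Rbfox2-deleted, n = 3, and 582 ± 197 CPM in control, n = 2, SD), were among the most abundant, with log2 values of -0.16 and -0.61, and Ncf4, another subunit of that oxidase, was at 0.56. The specific granule genes Ltf, Lcn2, Camp and Ngp had at most 8.84 CPM in any library. Without Rbfox2-deleted 1 the list had 6 of 15 genes above control and a median of -0.12.

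Among 24 other myeloid transcription factors, 20 were tested, 14 above and 6 below control with a median of 0.38, and 0 passed. The most abundant was Nfe2, better known from megakaryocytes, with 1995, 1105 and 1369 CPM in Rbfox2-deleted libraries, against 728 CPM in controls 1 and 3 together and 669 CPM in control 2. All 3 were above the controls, a separation found in this direction for 15.8% of all genes (log2 1.08, SE 0.412, edgeR adjusted p = 0.472). Gfi1b, the relative of Gfi1 used in erythroid and megakaryocytic cells, had 63.6, 192 and 243 CPM in Rbfox2-deleted libraries, against 128 CPM in controls 1 and 3 together and 91.6 CPM in control 2, far above Gfi1. Its log2 value was 0.45, and those of Irf1 and Myb were 0.37 and 0.15. Without Rbfox2-deleted 1 the list had 10 of 19 genes above control and a median of 0.0007.

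Receptors and adaptors of myeloid cytokines had 14 of 16 genes tested, 8 above and 6 below control with a median of 0.58, and 0 passed. Ifngr1, a chain of the interferon gamma receptor, had 75.2, 228 and 198 CPM in Rbfox2-deleted libraries, against 61.6 CPM in controls 1 and 3 together and 66.3 CPM in control 2 (log2 1.25, SE 0.462, edgeR adjusted p = 0.467). Kit, the stem cell factor receptor, was at log2 0.73, Jak1, a kinase of cytokine receptors, at -0.18 and Fcer1g, an adaptor of Fc receptors, at -0.40. Csf1r, the M-CSF receptor, had at most 14 counts in any library. Without Rbfox2-deleted 1 the list median was 0.31.

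**Figure D5:**
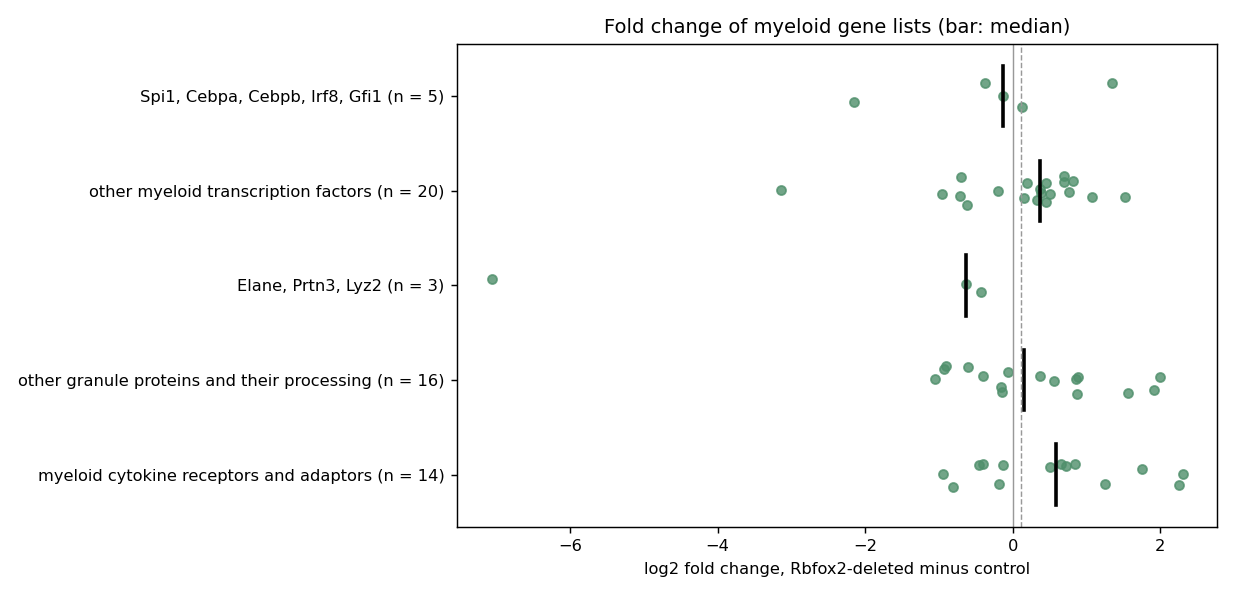
Log2 fold change (Rbfox2-deleted minus control) of each tested gene (points) in 5 lists, with the list median as a bar. The solid line is 0 and the dashed line the median of all genes, 0.11. Medians run from -0.63 for Elane, Prtn3 and Lyz2 to 0.58 for cytokine receptors and adaptors. Mpo and Ctsg were below the filter and are not shown, and Elane passed it only through its control level.

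Markers of mature cells were read beside the granule genes. Summed CPM of 10 mature neutrophil markers lay between 19.97 and 73.8 in Rbfox2-deleted libraries and between 21.3 and 26.2 in control samples, with Ly6g at no more than 2 counts in any library. The highest value was Rbfox2-deleted 1, from S100a8 at 56.7 CPM. The 14 monocyte and macrophage markers summed to between 87.8 and 148 CPM in Rbfox2-deleted and between 122 and 161 CPM in control, led by Ctss, Cd68, Lyz1 and C1qc, while Ccr2, Cx3cr1, F13a1, Adgre1 and Mpeg1 had at most 3 counts anywhere. Of 13 eosinophil, basophil and mast cell granule genes, 10 had at most 3 counts in every library. Prg2, an eosinophil granule protein, had 787 counts in control 2 and at most 3 elsewhere. The 10 markers of granulocyte-monocyte progenitors summed to between 143 and 459 CPM in Rbfox2-deleted and between 193 and 291 CPM in control. Summed markers of erythroid cells (9 of 10 in the table) were 4003 to 5335 CPM in Rbfox2-deleted and 2272 to 3033 CPM in control, most of it Car2. Those of 8 megakaryocyte genes were 44.1 to 279 CPM in Rbfox2-deleted and 295 to 304 CPM in control, of 8 B cell genes 139 to 195 and 214 to 325 CPM, nearly all Cd79b, and of 8 T and NK cell genes 52.1 to 100 and 34.5 to 42.4 CPM, with Cd3e, Cd3d and Cd3g at most 2 counts. Markers of stem cells summed to 1557 to 2309 CPM in Rbfox2-deleted and 2064 to 2154 CPM in control. Cd48, Cd34, Fcgr3 and Fcgr2b together had 70.2 to 166 CPM in Rbfox2-deleted and 55.1 to 98.5 CPM in control, mainly from Cd34. Of these 4 only CD48 is named in the sort. The part of other cells in the values of Elane, Prtn3 and Lyz2 was not tested.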

How the data were processed

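Counts of reads per gene, not normalized, were deposited by the authors for 6 libraries made by Smart-seq2, per the labels' protocols, a full-length method without strand or molecular identifiers. Per the submitters' processing notes, Trimmomatic 0.39, featureCounts and DESeq2 1.36.0 were used with build mm10. For the aligner, the annotation and multimapping reads, settings were not given in the sources used here. Rows sharing an Ensembl identifier were summed (60 identifiers, none of the 10 genes), and 22831 of 22969 identifiers had a symbol. Coordinates and transcript lengths came from GENCODE M21, the same build, and promoters from RefSeq.

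edgeR 4.0.16 (R 4.3.3) was applied to the counts of 5 samples (controls 1 and 3 summed), with filterByExpr (minimum count 10, minimum total 15), TMM scaling and the two-sided quasi-likelihood test, group as the only term, and Benjamini-Hochberg adjustment over 12350 genes with a threshold of 0.05. SE was taken as the size of the log2 value over the root of its F statistic. The 10 genes and all lists were chosen with earlier results of these data known. Of other lists, up to 4 genes with the highest mean CPM and the one with the smallest p were eligible to be named, while specific granule genes, Csf1r and markers at or near 0 were named after their values were seen. The lists held other transcription factors, granule and receptor genes, and markers of other cells. Alternatives were other scalings, filters and tests, 6 separate libraries, a replicate block, a length correction, sex (from Xist and Y-linked genes) and leaving out libraries. The scripts were tested on simulated data. The labels do not state whether replicates are separate mice, so p-values reflect only how these 5 samples vary, which may be technical. Intervals and floors cover counting error only.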

Additional observations from a re-analysis of the deposited data

How the results depend on the processing

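The edgeR and limma-voom settings called 0 genes and 0 of the 10 genes, with a replicate block on 6 separate libraries as without it. Under the block 2 of the 8 genes, Elane and Prtn3, had an unadjusted edgeR p under 0.05 (log2 -7.54 and -0.68). In that fit 685 genes higher and 663 lower, of 12144 tested, also reached this threshold. Elane passed the filter only through its control level. Same-numbered libraries had correlations of deviations of -0.0462, 0.00241 and 0.0704. With controls 1 and 3 nearly identical, these values cannot decide whether the numbers pair the samples. DESeq2 called 477 genes and 1 of the 10, Elane, on the whole table. After the filter, a setting chosen after seeing the data, it called 181 genes and 0 of the 10. Of 159 alternative fold changes, 152 kept direction and side of the threshold and 6 turned. Cebpb turned to -0.16 with upper quartile factors, -0.017 without a filter, -0.12 without Rbfox2-deleted 2 and -0.0030 without Rbfox2-deleted 3 (up to 0.40 with single libraries left out), Spi1 to 0.10 without control 2 (down to -0.35 without Rbfox2-deleted 1), and Irf8 to 0.20 without controls 1 and 3. The cause was not tested. Elane lay between -9.91 and -6.32 and was not tested under the stricter filter, Prtn3 between -0.96 and -0.22, Lyz2 between -0.77 and -0.21 and Cebpa between 0.22 and 5.54. Relative to the median of all genes, Prtn3 was at -0.74 with TMM and at -0.76 with upper quartile factors, which moved that median to -0.20. On this measure Prtn3 was at -0.35 with limma-voom and -0.33 with the length correction. Its extremes were -1.04 without control 2 and -0.05 with block and length correction together. Lyz2 was at -0.54 with TMM, and its extremes, in the same 2 settings, were -0.77 and -0.03. Adjusted p values of Elane ran from 0.000967 to 1.0. Unadjusted p under 0.05 was reached by 339 genes higher and 1087 lower with upper quartile factors, 236 and 135 with sex as a covariate, 1457 and 1467 without Rbfox2-deleted 1 and 134 and 331 without control 2. Fits without control 2 or without controls 1 and 3 leave 1 control sample, assumed to vary like the others. With sex as a covariate, the group difference rests on Rbfox2-deleted 2 alone against the controls. Values under about 10 counts, such as those of Ctsg and those of Mpo outside Rbfox2-deleted 3, are limited by depth.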
